A study of Homo sapiens with 4 samples.

Results

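The genes GATA4 and GATA6 were examined as places where the GATA4 protein itself was mapped. The members are the intervals of a GATA4 occupancy list that overlap either gene body or the 100 kb on each side of it, by 1 bp or more. They were taken by position alone, although this choice was made with earlier results of these data known. They number 82 of the 21308 intervals listed (0.385%): 1 at the GATA4 locus and 81 at the GATA6 locus. The list came from 4 CUT&RUN libraries of PaTu8988S, an established human pancreatic adenocarcinoma cell line, all in 1 group, with 500000 cells and 10 ug of a GATA4 antibody (MAB2606) per library. No treatment, genotype change or second antibody separates the libraries. The series asks about loss of GATA4 and GATA6 in pancreatic ductal adenocarcinoma and its relation to the "classical" tumour programme. The list pools the 4 libraries and gives positions only, so the values below carry no spread between libraries, no signal height and no test; read depth is unknown. Whether the libraries are separate cultures is not given in the sources used here. A control antibody or input library was not analysed here.

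GATA4 and GATA6 are paralogous zinc-finger transcription factors that recognise DNA containing the letters GATA. Both act in the formation of endoderm, including the pancreas, and of the heart, and genes for GATA factors are known to be bound by GATA proteins themselves in several tissues. In CUT&RUN an antibody on permeabilised cells tethers a nuclease, which releases DNA next to the bound protein for sequencing; a listed interval is a stretch where the peak caller found such fragments enriched.

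Coordinates are those of build hg19, named in the submitters' processing notes. The mitochondrial interval runs from 1 to 16571, and 16571 is the length of that chromosome in hg19. GATA6 lies on the plus strand of chromosome 18 from 19749416 to 19782227. With the flanks the loci span 255.8 kb for GATA4 and 232.8 kb for GATA6. In a RefSeq gene table of GRCh38.p14, used for names and order only, GATA4 (gene ID 2626) stands after SLC35G5, FAM167A and BLK, a B-cell tyrosine kinase gene. NEIL2, a DNA glycosylase gene, FDFT1, the squalene synthase gene, and CTSB, the cathepsin B gene, follow it. GATA6 (gene ID 2627) stands after SNRPD1, ABHD3 and MIB1, a ubiquitin ligase gene of Notch signalling, and before CTAGE1, RBBP8 and CABLES1. There, 3 other protein-coding genes (NEIL2, FDFT1 and CTSB) reach within 100 kb of GATA4 and 0 reach within 100 kb of GATA6. Exons of the hg19 build were not used here, so intervals are placed by gene body and flank only.

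The start of GATA6 is shown first, since it falls in a break between intervals. The nearest interval upstream ends 2003 bp before the gene start (19746911 to 19747413, 502 bp wide), and the nearest downstream begins 3733 bp after it (19753149 to 19754367, 1218 bp wide, inside the gene). The break of 5736 bp between them is the fourth longest of the 80 gaps between neighbouring intervals at the locus, whose median gap is 1298 bp. Over the whole of chromosome 18, 332 of 1104 gaps (30.1%) are as long or longer. Of all positions in the GATA6 window, 10.9% lie as far from an interval as the gene start does, or farther. The promoter as RefSeq gives it (GRCh38.p14, chr18:22169339-22169638, plus strand) is printed below, with the 250 bases before the RefSeq start in lower case and the 50 bases from the start onward in capitals.
GATA6: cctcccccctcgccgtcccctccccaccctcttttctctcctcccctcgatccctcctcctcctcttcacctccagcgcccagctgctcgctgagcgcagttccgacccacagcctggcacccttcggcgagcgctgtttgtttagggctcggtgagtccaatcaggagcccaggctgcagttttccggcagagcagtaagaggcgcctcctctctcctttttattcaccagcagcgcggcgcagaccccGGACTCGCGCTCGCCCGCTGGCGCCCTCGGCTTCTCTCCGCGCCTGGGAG
Of these 300 bases, 66.7% are G or C. The letters GATA, searched on both strands (as GATA or TATC), occur 0 times in them. Of 35116 RefSeq promoters of that length, 49.7% hold at least 1 match, so a promoter without one is common. Those promoters were not matched to GATA6 for their share of G and C. The longer AGATAA (or TTATCT), whose every match also contains a GATA match, occurs 0 times as well and is held by 10.3% of promoters. Absence of these letters says only that they are not in this window. The RefSeq gene is 128 bp longer than the span used here, which is short against the 2003 bp to the nearest interval. DNA under the intervals themselves was not read, as an hg19 sequence was not used here.

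At GATA4 the list was almost empty. The gene lies on the plus strand of chromosome 8 from 11561717 to 11617509. Its body held 0 intervals, the 100 kb before it held 0 and the 100 kb after it held 1. That interval runs from 11659912 to 11660348, is 436 bp wide, and begins 98.2 kb after the gene start and 42.4 kb beyond the gene end. It covers 0.17% of the locus. Its width is below the median of chromosome 8 (635 bp, quartiles 454 and 942 bp, 1978 intervals) and of the whole list (586 bp, quartiles 416 and 859 bp).

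The interval near GATA4 is isolated. The preceding interval on the chromosome spans 10839484 to 10839933 (449 bp wide). The following one spans 12442914 to 12443358 (444 bp wide). GATA4 thus lies wholly within a stretch of 820.0 kb without an interval, which reaches 721.8 kb upstream of the gene start. Of the 1977 gaps on chromosome 8, 23 (1.16%) are as long or longer, and the median gap is 14.4 kb. The gap on the other side of the interval is 782.6 kb, and 29 gaps of the chromosome are at least that long. These shares count every gap once, whereas a gap picked because it holds a given gene tends to be long. They therefore do not measure how rare such a place is. Of all positions in the GATA4 window, 39.1% lie as far from an interval as the gene start does, or farther. In the RefSeq table GATA4 is 27.3 kb longer than the span used here; were all of that added upstream, the gene would still lie in the same stretch and the locus would still hold 1 interval.

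Windows of equal length were tiled along each chromosome from the locus outward, to compare each locus with its surroundings. On chromosome 8, 571 windows of 255.8 kb held a median of 1 interval (upper quartile 4, highest 55), and 63.9% of them held 1 or more. The count at GATA4 therefore equals the median of its chromosome, and holding 1 interval is no departure from the background. There were 206 windows with 0 intervals, 102 with 1 and 263 with more than 1. The mean was 3.47, above the median of 1, and the GATA4 count is 0.288 times the mean. The 10 windows on each side of GATA4 held 6 intervals together, with 14 of these 20 windows empty and no window above 1, so the sparseness extends well past the gene. Over all autosomes and chromosome X, 45.9% of 11495 windows of this length held at least 1 interval.

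**Figure D1:**
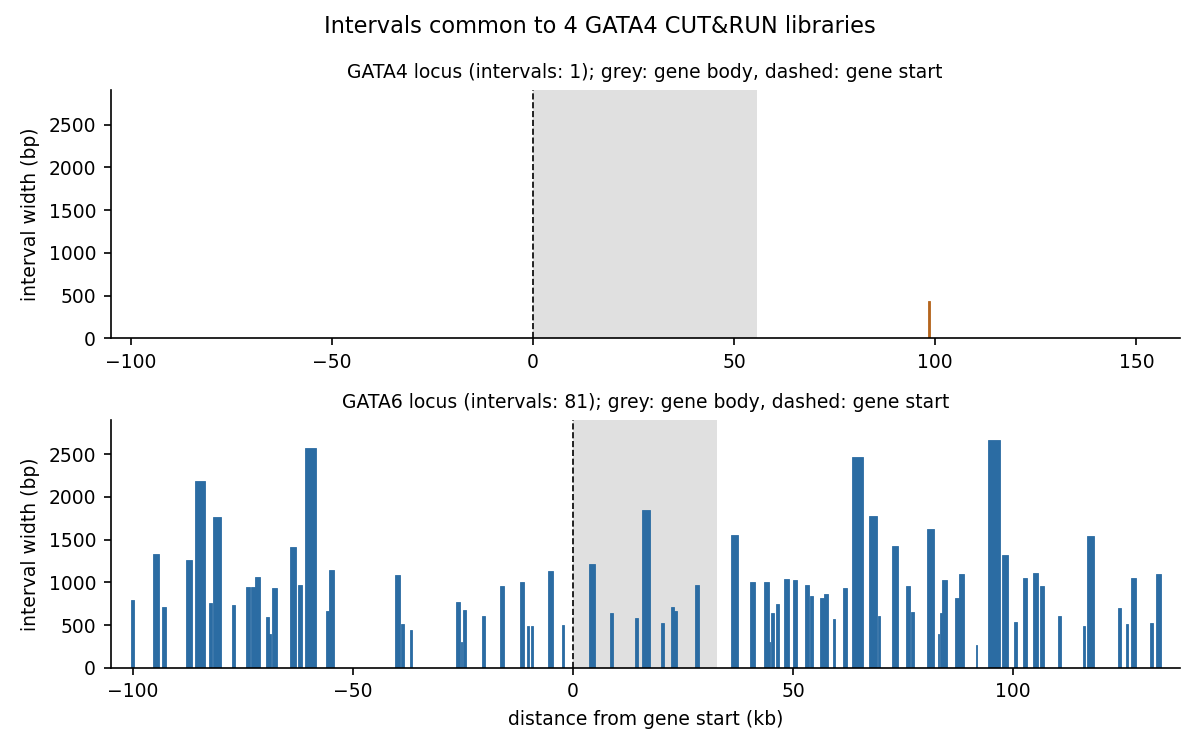
Intervals at the GATA4 locus (top) and the GATA6 locus (bottom), by distance from the gene start in kb (horizontal) and width in bp (vertical, and to scale along the horizontal axis); grey marks the gene body and the dashed line the gene start. The GATA4 locus shows 1 interval, 98.2 kb after the start, and the GATA6 locus shows 81 on both sides of a break at the gene start.

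At GATA6 the list was dense. The locus held 81 intervals, or 34.8 per 100 kb against 0.391 per 100 kb at GATA4, a ratio of 89.0 that rests on a single interval at GATA4. Intervals covered 76.5 kb, which is 32.9% of the locus. These 81 are 7.33% of the 1105 intervals of chromosome 18. Of them 79 lie wholly inside the window and the outermost on each side cross its edges, at 19649016 to 19649808 (792 bp wide) upstream and at 19881852 to 19882951 (1099 bp wide) downstream. The nearest interval left out upstream spans 19648393 to 19648801 (408 bp wide). Its downstream counterpart spans 19883814 to 19885010 (1196 bp wide), so the dense stretch goes on past both edges.

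The gene body was less dense than either flank. It held 8 intervals (24.4 per 100 kb, 21.9% covered), against 32 in the upstream 100 kb (29.8% covered) and 41 in the downstream 100 kb (39.5% covered). The 8 begin 3.73, 8.51, 14.1, 15.7, 20.04, 22.2, 22.96 and 27.7 kb after the gene start. Their widths range from 521 to 1848 bp, and the widest runs from 19765134 to 19766982, in the middle of the gene. The next interval after the last of them begins 3.10 kb beyond the gene end, across a gap of 7283 bp. Windows of the length of the gene (32.8 kb), tiled from it through the dense region described further on, numbered 79, with a median of 10 intervals and a range of 0 to 19. Of these, 30 held 8 or fewer and 19 were covered to the same extent or less, so the gene body lies below the middle of its surroundings but within their range.

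Just upstream of GATA6, 10 intervals stand between the gap that ends at 19722951 and the gene start. They begin 26.5, 25.4, 25.1, 20.6, 16.6, 12.1, 10.5, 9.63, 5.57 and 2.51 kb before the start, and their widths run from 303 to 1134 bp. Farther upstream are the locus's longest gaps, of 13796 bp (from 19695161 to 19708957) and 10129 bp (from 19712822 to 19722951). In steps of 10 kb from the gene start, counted by interval centre, the 24 steps took in 80 of the 81 intervals, as the centre of the outermost upstream one lies before the first step. They held a median of 3 intervals and at most 6; the last step reaches past the window edge and counts members only. Only the step from 50 to 40 kb upstream held 0. Steps with 6 all lie downstream of the gene and begin 40, 50 and 80 kb after its start.

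The widths at GATA6 ranged from 263 to 2665 bp with a median of 933 bp (quartiles 608 and 1099 bp). The widest of all (2665 bp) spans 19843748 to 19846413, with its centre 95.7 kb after the gene start. The second (2573 bp) spans 19688488 to 19691061 in the upstream flank, and the third (2468 bp) 19812862 to 19815330 in the downstream flank. The fourth (2185 bp), at 19663624 to 19665809, is again upstream. The fifth is the 1848 bp interval in the gene body, so the wide intervals are spread over the locus and do not gather at the gene. Intervals of 1 kb or more numbered 31 (38.3%), compared with 38.9% on chromosome 18 and 18.2% in the whole list. Intervals at or above the median width of the list numbered 65 of 81 (80.2%), compared with 69.1% on chromosome 18. Both chromosome 18 values include the locus and the dense region described further on, which holds 775 of the 1105 intervals. Widths of 997 bp or less made up 61.7% at the GATA6 locus. They made up 48.7% in the rest of that region and 86.7% on chromosome 18 outside it. Spacing was irregular: of the 80 gaps, 34 were 1 kb or shorter and 10 were 100 bp or shorter, with 4 bp the shortest. Joining intervals no more than 1 kb apart left 47, so the count depends on whether close neighbours are counted apart.

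Against its chromosome the GATA6 locus was among the fullest windows. On chromosome 18, 334 windows of 232.8 kb held a median of 0 intervals, a mean of 3.30 and at most 98, and 34.4% of them held 1 or more. At least as many intervals as the GATA6 locus were held by 4 windows (1.20%), itself included, and 2 held more. The GATA6 count is 24.6 times the mean. Over all autosomes and chromosome X, 11 of 12629 windows of this length (0.0871%) held at least 81.

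**Figure D2:**
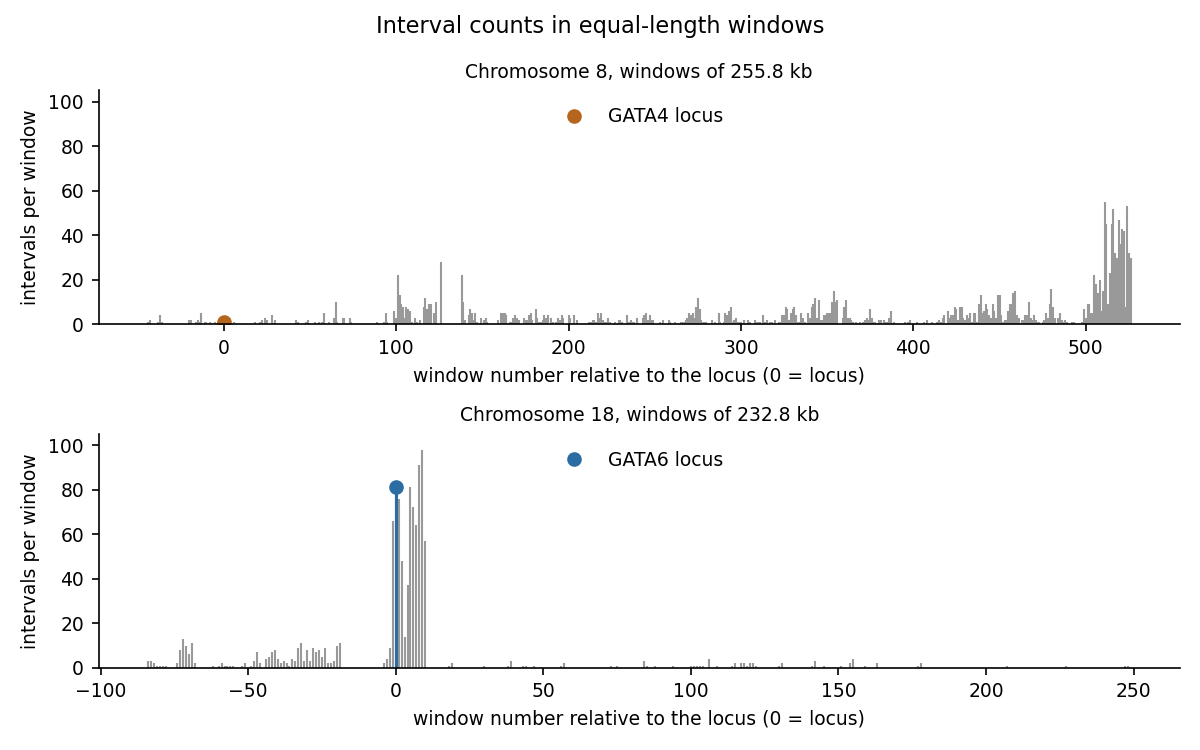
Intervals per window (vertical) in windows of equal length tiled along chromosome 8 from the GATA4 locus (top, 255.8 kb) and along chromosome 18 from the GATA6 locus (bottom, 232.8 kb), numbered from the locus (horizontal); coloured points mark the loci and grey lines all other windows. The GATA4 locus sits at 1 in a sparse part of chromosome 8, and the GATA6 locus at 81 near the edge of a group of full windows.

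The high count is shared with the neighbourhood of GATA6. Neighbours within 12.5 kb were linked, groups with at least 20 intervals were taken as dense tracts, and tracts under 1 Mb apart were joined. The 81 intervals fell in 2 such tracts, 19 in one that begins upstream of the locus (19477291 to 19695161, 78 intervals) and 62 in one that contains the gene (19708957 to 20010572, 116 intervals). Both belong to a joined region from 19477291 to 22104860 with 775 intervals, of which the GATA6 locus holds 10.5%. The locus had 34.8 intervals per 100 kb and the region 29.5; the share covered was 32.9% at the locus and 36.6% in the region. As the region was drawn around high density, this is a description of the locus within it. Its 10 windows, the GATA6 locus among them, ranged from 14 to 98 intervals with a median of 74, and 3 of the 9 others held as many as the GATA6 locus or more. By share covered, 5 of the 9 others reached the 32.9% of the GATA6 locus, and the highest reached 60.6%. The window before the GATA6 locus held 66 and the one after it 76. The number of DNA copies of this region in the cells was not tested. Without a control or input library analysed, the list cannot tell a regional gain of reads from GATA4 occupancy.

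The 322 windows of chromosome 18 that do not touch the region held 0.981 on average and at most 13, and 219 of them were empty. Windows that cross an edge of the region, with 66 and 57 intervals, are in neither set. The 81 intervals at GATA6 exceed the count of every window outside the region and fall within the range of those inside it. As the region was drawn around high density, with these 81 included, the low counts outside follow in part from how it was drawn.

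**Figure D3:**
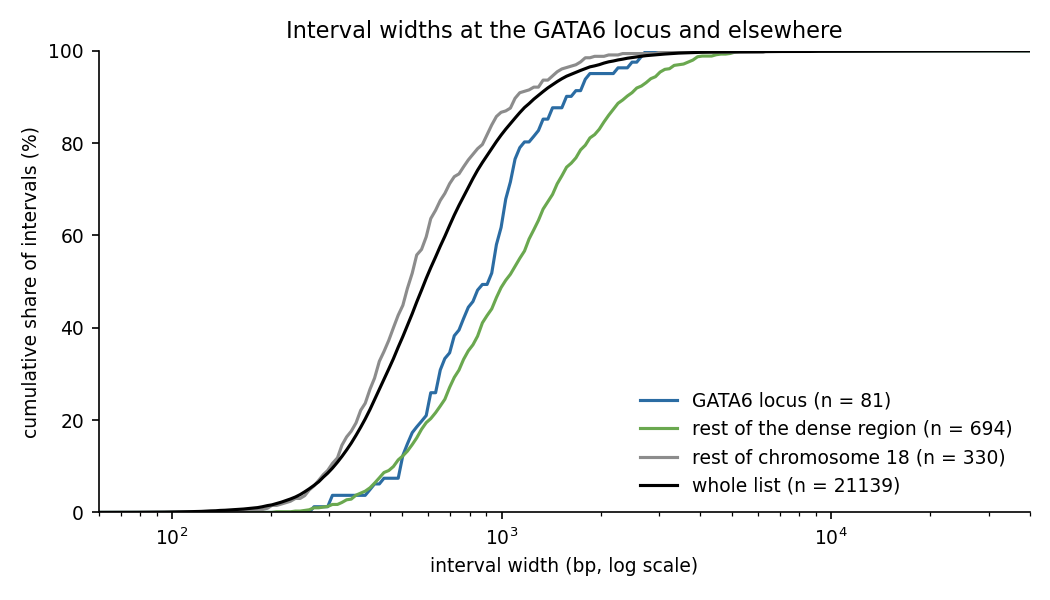
Cumulative share of intervals in percent (vertical) by width in bp on a log scale (horizontal), for the 81 intervals of the GATA6 locus, the other 694 of the dense region, the 330 of chromosome 18 outside it and the 21139 of all autosomes and chromosome X. The median at GATA6 (933 bp) lies between that of the rest of the region (1026 bp) and those of the rest of chromosome 18 (529 bp) and the whole list (586 bp), while the curves cross at both ends.

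The median width at GATA6 lay between that of its region and that of the rest of its chromosome. The other 694 intervals of the region had a median of 1026 bp (quartiles 679 and 1582 bp), above the 933 bp at the GATA6 locus, while the 330 intervals of chromosome 18 outside the region had a median of 529 bp. The median gap was 1298 bp at the GATA6 locus and 904 bp over the whole region. The median gap was thus longer at GATA6 although the number of intervals per 100 kb was higher there (34.8 against 29.5), so the 2 measures of spacing differ in direction. The region joins 7 dense tracts, and its length includes the stretches between them, which count in full toward the number per 100 kb.

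The contrast between the loci did not hinge on the flank. With flanks of 10, 25, 50, 200, 500, 1000 and 2000 kb, the GATA6 count was 13, 28, 42, 153, 265, 323 and 658. At the same flanks the GATA4 count was 0, 0, 1, 1, 1, 3 and 6. Density around GATA6 was highest with flanks of 200 kb (35.4 per 100 kb) and lower with wider ones, at 25.7 per 100 kb with 500 kb and 15.9 with 1000 kb; windows with flanks of 500 kb or more pass the near edge of the dense region. Around GATA4 it was at most 0.642 per 100 kb, with flanks of 50 kb, the smallest of these that reaches the isolated interval.

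**Figure D4:**
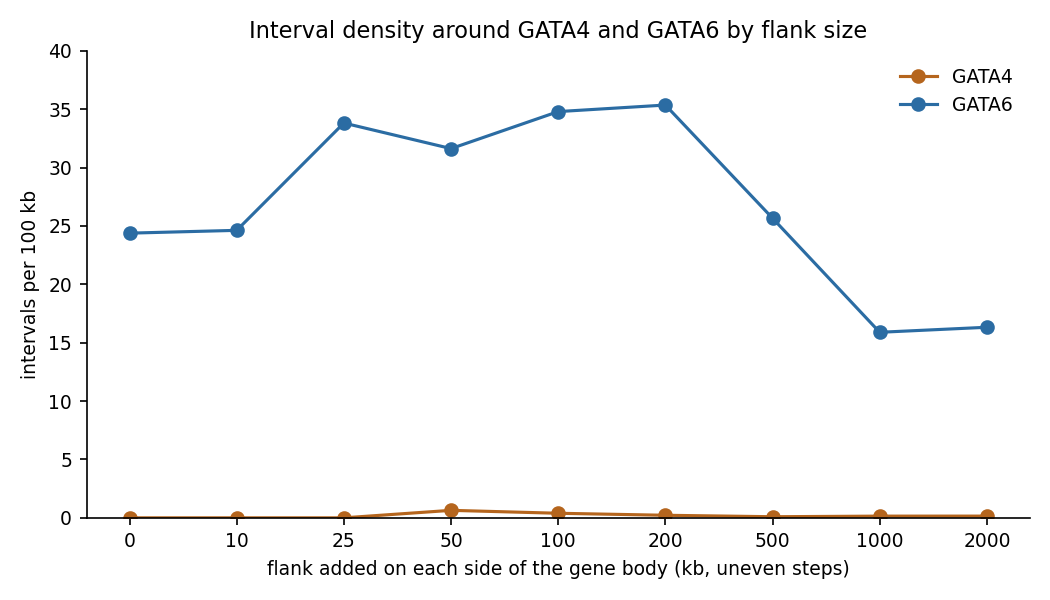
Intervals per 100 kb (vertical) in windows made of the gene body and a flank on each side, by flank length in kb in uneven steps (horizontal), for GATA4 and GATA6. GATA6 lies between 15.9 and 35.4 per 100 kb, and GATA4 at or below 0.642 at every flank drawn.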

How the data were processed

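Per the labels, the deposited list holds peaks common to 4 GATA4 CUT&RUN libraries of PaTu8988S. Its 3 columns are chromosome, start and end positions in bp as the authors deposited them, with no score, signal or count. SEACR (a CUT&RUN peak caller) and HOMER (a peak annotation package) were used with build hg19, per the submitters' processing notes; the sources used here do not give versions, parameters or the overlap that made a peak common. Widths and distances are differences of listed positions and may be off by 1 bp, since the counting base is not stated.

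Intervals on the 22 autosomes and chromosome X (21139) were used. Members were counted by overlap of 1 bp or more. Background windows were tiled without overlap between the first and last interval of a chromosome, full windows only, empty ones kept. Neighbouring windows are not independent and the list has no replicates, so no p-value was computed. Named intervals were those nearest each gene start and the 5 widest per locus; the rest of those printed were chosen after their values were seen. The members, lists and the limits for dense tracts were chosen with earlier results of these data known. Other GATA family genes and partners, listed for counting if hg19 positions were at hand, were not analysed here. The counting was tested on simulated intervals. Python 3.11.15, numpy 2.4.6, pandas 2.3.3 and matplotlib 3.10.9 were used.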

Additional observations from a re-analysis of the deposited data

How the results depend on the processing

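Of 61 recomputed values, 36 stayed within 1.5 times the reported value (for shares of windows, within its 95% binomial interval) and 25 moved further. The binomial interval takes windows as independent, which neighbouring windows are not, so it served only as a cutoff and measures no uncertainty. Among the alternatives, 5 were chosen after seeing the data. With flanks of 50 kb the GATA6 count was 42, and for GATA4 the share of windows reaching its count was 54.8%, the share covered 0.28% and the ratio to the mean window 0.472; with 200 kb these were 153, 78.4%, 0.0957% and 0.162. With intervals within 1 kb merged, GATA6 had 47 intervals of median width 1757 bp. With intervals at or above the median width only, GATA4 had a count of 0, a ratio of 0 and 0% covered, so that 100% of windows reached it. Without empty windows the share was 100% for GATA4 and 3.48% for GATA6, and the ratios 0.184 and 8.46. Against windows of all autosomes and chromosome X the shares were 45.9% and 0.0871%, and the ratios 0.546 and 48.5. Against the 10 windows inside the dense region alone, the locus included, the GATA6 ratio was 1.22 and the share 40%; against those outside it the ratio was 82.5. Other flanks, merging, the width limit and other sets of windows change what is counted by their own construction. No paired analysis was possible because all libraries are in 1 group and pooled in 1 list, which also prevented leaving out each library. Read depth is not known, and ground without an interval means only that none common to the libraries was listed.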
